A study of Mus musculus with 9 samples.

Results

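The genes described here are 45 neighbours in 3 stretches of the mouse genome, 15 to a stretch, chosen by their K/L minus wild type and K/L minus Sox4 differences in RNA signal. The Slc38a9 window lies on chromosome 13 and runs from Slc38a9 to 4833420G17Rik. The Slco4a1 window and the Pcif1 window both lie on chromosome 2, from Slco4a1 to Prpf6 and from Pcif1 to B4galt5. They are 45 of 18194 genes on the arrays and of 12826 genes tested. Each window was a run of neighbours among the tested genes with a mean log2 intensity of at least 7 over all 9 arrays, and no gene of that level within a span was left out.

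RNA was measured in FrII cells, myeloid progenitors of mice that were sorted without lineage markers or Sca-1, with c-Kit, and with low or positive Mac1. There were 3 groups of 3 arrays, all from mice labelled C57/BL6 and 2 to 4 months old. K/L leukaemic cells came from mice known for mutations in both alleles of Cebpa, the gene of the granulocyte transcription factor C/EBPα. Sox4 leukaemic cells came from leukaemic mice that overexpressed the transcription factor Sox4, and wild type cells came from mice without leukaemia. The labels give the leukaemic cells a CD45.1-negative, CD45.2-positive gate and do not give how Sox4 was driven or how many leukaemias a group holds. The labels number the arrays of a group from 1 to 3 as mice, without saying whether an array holds 1 animal or a pool, and Sox4 array 3 carried both Xist and Y-linked signal, so errors measure only the spread between these arrays.

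Most genes that lie side by side in a mammalian genome are unrelated in sequence and in function. Neighbours share a stretch of chromosome, and some pairs start back to back from a common promoter or lie one inside the other. The members here work in mitochondria, on ribosomes and RNA, at the Golgi, in chromatin and at the cell surface. Neither DNA copy number nor chromatin was analysed here, and in cell populations of this kind fewer expressing cells and less RNA per cell cannot be told apart.

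The promoters of the member with the largest K/L difference in each window are shown, since members of a window were alike in direction. They span 300 bases from upstream of the RefSeq start to just past it (assembly GRCm38.p6) and read 5′ to 3′ on the gene's strand. A further one, shared by the back-to-back pair Dido1 and Gid8, was chosen after its motifs were seen. Capitals mark matches to the C/EBP core TTGCNNAA or to the CCAAT box, each searched on both strands, and none of these matches overlapped.
4833420G17Rik (chr13:119462509-119462808, plus strand): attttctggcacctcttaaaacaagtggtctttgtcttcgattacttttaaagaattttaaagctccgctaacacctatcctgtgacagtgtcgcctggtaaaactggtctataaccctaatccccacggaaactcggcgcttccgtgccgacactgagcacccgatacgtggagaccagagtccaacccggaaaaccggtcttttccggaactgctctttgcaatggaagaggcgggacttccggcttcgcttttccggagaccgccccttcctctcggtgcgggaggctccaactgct
Zgpat (chr2:181364681-181364980, plus strand): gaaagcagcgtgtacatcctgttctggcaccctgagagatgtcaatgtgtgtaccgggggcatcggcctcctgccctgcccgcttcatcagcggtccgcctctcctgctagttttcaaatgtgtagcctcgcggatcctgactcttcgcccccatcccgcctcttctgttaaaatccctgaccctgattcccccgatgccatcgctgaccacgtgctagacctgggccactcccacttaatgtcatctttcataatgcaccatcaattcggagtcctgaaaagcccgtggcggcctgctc
Prex1 (chr2:166713783-166714082, minus strand): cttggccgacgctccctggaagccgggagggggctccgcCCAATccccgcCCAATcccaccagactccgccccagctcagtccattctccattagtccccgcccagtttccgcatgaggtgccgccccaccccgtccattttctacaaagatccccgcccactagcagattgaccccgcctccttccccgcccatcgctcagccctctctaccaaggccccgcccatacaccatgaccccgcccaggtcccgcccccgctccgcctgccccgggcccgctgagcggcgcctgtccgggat
Gid8 (chr2:180709976-180710275, plus strand): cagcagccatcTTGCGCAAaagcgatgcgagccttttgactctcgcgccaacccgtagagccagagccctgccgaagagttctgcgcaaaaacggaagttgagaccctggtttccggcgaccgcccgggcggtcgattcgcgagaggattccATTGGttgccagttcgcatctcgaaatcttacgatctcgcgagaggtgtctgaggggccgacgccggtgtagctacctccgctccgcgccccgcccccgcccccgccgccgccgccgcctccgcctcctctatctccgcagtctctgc

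The printed promoters of 4833420G17Rik and Zgpat held neither motif. Zgpat had 2 entries, and the one printed is not the one that overlaps the promoter of Arfrp1. Prex1 had 2 CCAAT boxes, at -211 and -200 from the start. Gid8 had 1 C/EBP core, at -239, and 1 CCAAT box on the other strand, at -98, in a region of which 274 bases belong to the promoter of Dido1 too. Of the 45 members, 40 had an entry in the promoter table, with 58 promoters between them. The C/EBP core stood in 6 of these, 10.3 percent, against 8.15 percent of promoters of genes with a mean of 7 or more and 10.8 percent of all promoters of 300 bases in the table. CCAAT stood in 18, which is 31.0 percent, against 37.8 and 37.4 percent. By window the C/EBP core stood in 0 of 15 Slc38a9, 4 of 23 Slco4a1 and 2 of 20 Pcif1 window promoters. Genes with several promoters count more than once, and the C/EBP core and CCAAT box in the stretch shared by Dido1 and Gid8 count for both genes. The median number of CG pairs was 23.5 in the members' promoters, 22 in those of genes with a mean of 7 or more and 7 in all.

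Values below are log2 intensities, and differences are K/L minus wild type, K/L minus Sox4 or Sox4 minus wild type, with the standard error (SE) of the limma fit (n = 3 arrays a group). Where group means are given, the ± value is the standard deviation (SD) of the 3 arrays. A gene is read from its brightest probe set, leaving aside those of the less specific _x_at type where another exists. K/L cells were the basis on which the windows were chosen, so both K/L comparisons are descriptions without a test. Over all tested genes the median difference was 0.055 for K/L minus wild type, 0.027 for K/L minus Sox4 and 0.031 for Sox4 minus wild type. All 3 K/L values lay above all 3 wild type values in 33 percent of tested genes, and below them in 25.1 percent. Against Sox4 cells the shares were 27.3 percent above and 23.8 percent below. In genes with a mean of 7 or more, which is how members were taken, they were 38.1 and 28.7 percent against wild type and 30.6 and 26.9 percent against Sox4. Of all 12826 tested genes, 1205 were at least 2-fold higher in K/L than in wild type cells and 932 at least 2-fold lower. Against Sox4 cells these counts were 473 and 705.

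**Figure D1:**
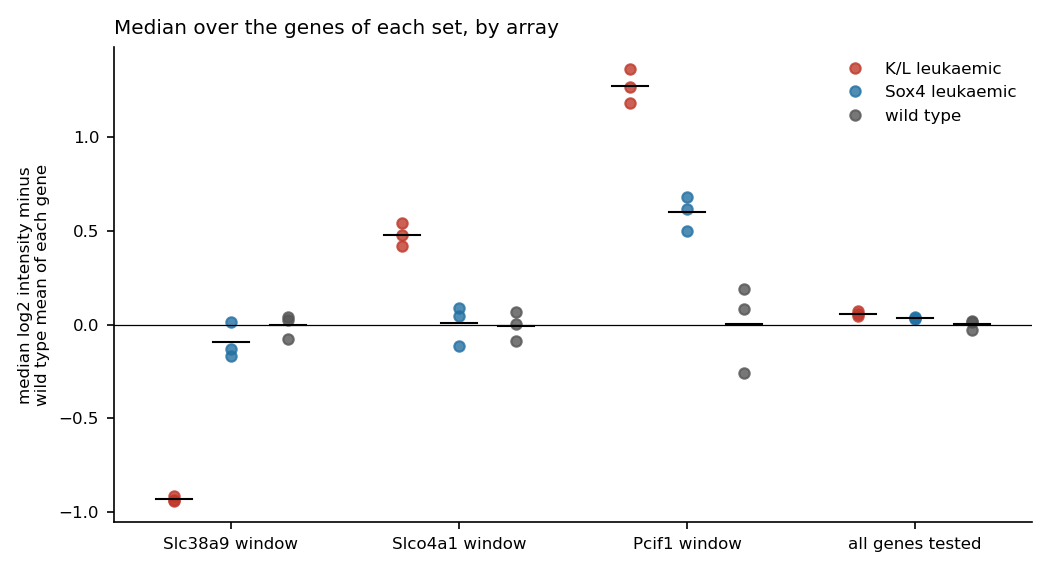
Median over the genes of each window, and over all tested genes, of the log2 intensity minus that gene's wild type mean, with 1 point for each array and a bar at the mean of the 3 arrays of a group. The K/L arrays stand apart in all 3 windows, near -0.93, 0.48 and 1.27, while the Sox4 arrays stand apart from wild type in the Pcif1 window, at 0.50 to 0.68.

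The median member of the Slc38a9 window was 1.82-fold lower in K/L than in wild type cells (median log2 difference -0.86) and 1.88-fold lower than in Sox4 cells (-0.91). Per array, with each gene set to its wild type mean, the median member stood at -0.94, -0.94 and -0.92 in K/L cells, at -0.13, 0.01 and -0.17 in Sox4 cells and at 0.03, -0.07 and 0.04 in wild type cells. In the Slco4a1 window K/L cells were higher, by a median of 0.47 against wild type and 0.65 against Sox4 cells. Here the arrays stood at 0.48, 0.42 and 0.54 in K/L cells, -0.11, 0.09 and 0.05 in Sox4 cells and 0.00, 0.07 and -0.09 in wild type cells. The Pcif1 window was the one where both leukaemias lay high: its median difference was 1.33 for K/L minus wild type, 0.40 for K/L minus Sox4 and 0.63 for Sox4 minus wild type. Its arrays stood at 1.19, 1.37 and 1.27 in K/L cells, 0.62, 0.68 and 0.50 in Sox4 cells and 0.19, 0.08 and -0.26 in wild type cells. The plot of medians by array shows K/L arrays clear of both other groups in each window.

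**Figure D2:**
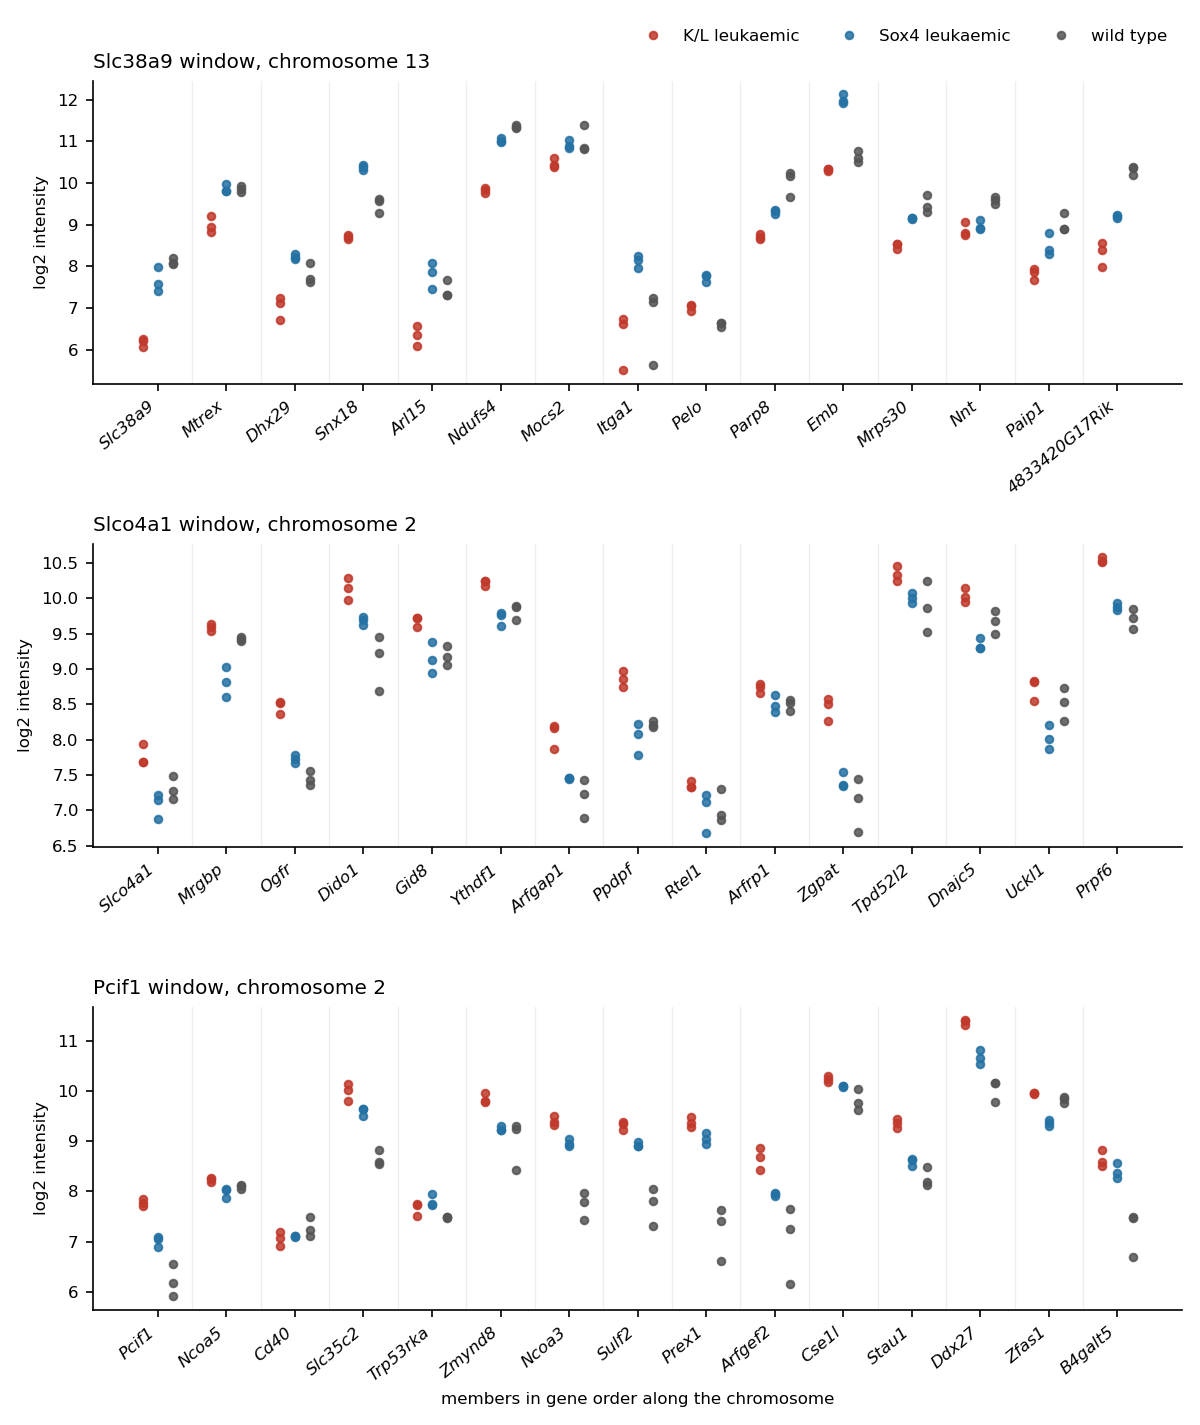
Log2 intensity of each of the 45 members on the 9 arrays, in gene order along the chromosome, with 3 points for each of K/L leukaemic, Sox4 leukaemic and wild type cells. K/L means are the lowest in 14 of 15 Slc38a9 window members, all but Pelo, and the highest in all 15 Slco4a1 window members and in 13 of 15 Pcif1 window members, all but Cd40 and Trp53rka.

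In the Slc38a9 window, 13 of 15 members had all K/L values below all wild type values, against 25.1 percent of all tested genes, Pelo had them above, and Itga1 overlapped. Against Sox4 cells 14 members had all K/L values below, against 23.8 percent of all genes, and only Nnt overlapped. The group mean was lowest in K/L cells for 14 of the 15 members, while Sox4 means were the highest for 7 and in between for 8. At least 2-fold differences were seen in 6 members against wild type and in 7 against Sox4, all lower in K/L.

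Of the members that act in mitochondria, Ndufs4 (probe set 1448959_at), a subunit of respiratory complex I, measured 9.89, 9.75 and 9.82 in K/L cells, 11.08, 11.00 and 10.98 in Sox4 cells and 11.38, 11.32 and 11.33 in wild type cells. Its K/L values lay more than 2-fold below both other groups without overlap, with differences of -1.53 ± 0.086 against wild type and -1.20 ± 0.086 against Sox4. Nnt (1416105_at), which makes NADPH in mitochondria and of which the C57BL/6J substrain is known to carry a deletion, measured 8.79, 8.76 and 9.07 in K/L cells, 8.92, 8.88 and 9.11 in Sox4 cells and 9.66, 9.48 and 9.59 in wild type cells. Both leukaemias lay below wild type without overlap and overlapped each other, at -0.70 ± 0.12 for K/L minus wild type and -0.097 ± 0.12 for K/L minus Sox4. The labels do not give the substrain of any group. The brightest probe set of Nnt, 1456573_x_at with a mean of 10.63, gave -0.22 for K/L minus wild type and 0.00018 for K/L minus Sox4. A dim one, 1432608_at with a mean of 5.04, gave 0.34 for K/L minus wild type, so size and direction in Nnt depend on the probe set. Mrps30, a protein of the mitochondrial ribosome, averaged 8.49 ± 0.073 in K/L, 9.15 ± 0.011 in Sox4 and 9.47 ± 0.21 in wild type cells (SD), in 3 separate steps. Outside this mitochondrial group, Mocs2, needed for the molybdenum cofactor, was lowest in K/L cells without overlap. Its differences were -0.54 ± 0.15 against wild type and -0.45 ± 0.15 against Sox4.

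Among members that act on RNA and translation, Paip1 (1425521_at), a partner of the poly(A)-binding protein, measured 7.92, 7.68 and 7.87 in K/L cells, 8.80, 8.38 and 8.29 in Sox4 cells and 9.28, 8.90 and 8.90 in wild type cells. K/L values were the lowest and wild type values the highest, with no overlap between any groups, and the K/L difference was -1.20 ± 0.16 against wild type and -0.67 ± 0.16 against Sox4. Mtrex, the helicase of the nuclear exosome, averaged 8.99 ± 0.20 in K/L, 9.86 ± 0.095 in Sox4 and 9.85 ± 0.073 in wild type cells (SD), and K/L minus Sox4 was -0.87 ± 0.12. Dhx29, a helicase of translation initiation that starts back to back with Mtrex, averaged 7.02 ± 0.28 in K/L, 8.23 ± 0.056 in Sox4 and 7.80 ± 0.25 in wild type cells (SD) and was highest in Sox4 cells. Pelo (1434071_a_at), a ribosome rescue factor whose gene lies inside Itga1, measured 7.05, 7.08 and 6.94 in K/L cells, 7.76, 7.79 and 7.63 in Sox4 cells and 6.63, 6.54 and 6.65 in wild type cells. It was the only member of this window higher in K/L than in wild type cells, by 0.41 ± 0.092, while K/L minus Sox4 was -0.71 ± 0.092.

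Of the members that act at membranes, Slc38a9 (1456338_at), a lysosomal amino acid transporter and arginine sensor, measured 6.06, 6.26 and 6.20 in K/L cells, 7.97, 7.58 and 7.40 in Sox4 cells and 8.08, 8.05 and 8.19 in wild type cells. K/L values were 3.82-fold below wild type and 2.78-fold below Sox4 on the log2 means, without overlap, and the K/L minus wild type difference was -1.93 ± 0.14. Emb (1415857_at), which encodes embigin, a surface partner of lactate transporters, measured 10.33, 10.33 and 10.30 in K/L cells, 12.12, 11.92 and 11.97 in Sox4 cells and 10.59, 10.49 and 10.76 in wild type cells. Sox4 cells were more than 2-fold above both others, and K/L lay below wild type without overlap but by a small margin, -0.29 ± 0.10. Itga1 (1455251_at), the collagen-binding integrin alpha 1 chain, measured 6.74, 5.51 and 6.62 in K/L cells, 7.97, 8.24 and 8.15 in Sox4 cells and 7.15, 7.23 and 5.64 in wild type cells. Sox4 values were the highest without overlap, while K/L and wild type overlapped and each held 1 low array, so the difference of -0.38 ± 0.43 between them lay within its error. Snx18, a sorting nexin of endocytosis, had the same order of groups, with means of 8.71 ± 0.045 in K/L, 10.37 ± 0.065 in Sox4 and 9.49 ± 0.18 in wild type cells (SD) and -1.67 ± 0.11 for K/L minus Sox4.

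Arl15 (1433642_at), a small GTPase, measured 6.35, 6.56 and 6.08 in K/L cells, 7.85, 7.45 and 8.07 in Sox4 cells and 7.32, 7.32 and 7.66 in wild type cells. K/L values lay below both other groups, which overlapped, at -1.10 ± 0.18 against wild type and -1.46 ± 0.18 against Sox4. Parp8 (1451474_a_at), of the ADP-ribosyltransferase family, measured 8.77, 8.70 and 8.66 in K/L cells, 9.34, 9.32 and 9.25 in Sox4 cells and 10.25, 10.16 and 9.65 in wild type cells. No groups overlapped, and the order was K/L, Sox4, wild type from low to high, with -1.31 ± 0.15 for K/L minus wild type. The last gene of the window, 4833420G17Rik (1419635_at), uncharacterised by name and shown above by its promoter, measured 8.55, 8.38 and 7.97 in K/L cells, 9.24, 9.17 and 9.21 in Sox4 cells and 10.19, 10.38 and 10.35 in wild type cells. It had the largest K/L minus wild type difference of the window, -2.01 ± 0.14 or 4.03-fold lower, and its 4 other probe sets gave -1.88 to -2.80.

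In the Slco4a1 window all 15 members had a higher mean in K/L than in either other group. All K/L values lay above all wild type values for 13 members, with Tpd52l2 and Uckl1 overlapping, and above all Sox4 values for 15, where all tested genes had 33 and 27.3 percent. The median difference from wild type was smaller than in the other windows, while that from Sox4 cells was larger than in the Pcif1 window, and 3 members reached 2-fold against wild type and 1 against Sox4. The Sox4 mean was the lowest of the groups in 9 members and in between in 6.

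Zgpat (1424548_at), a zinc finger gene that overlaps Arfrp1 and starts back to back with it, had the largest K/L differences of this window and measured 8.26, 8.58 and 8.50 in K/L cells, 7.55, 7.35 and 7.35 in Sox4 cells and 6.70, 7.44 and 7.18 in wild type cells. K/L values lay above both other groups, which overlapped, by 1.34 ± 0.18 against wild type and 1.03 ± 0.18 against Sox4. Dido1 (1456405_at), a chromatin reader, measured 10.14, 9.98 and 10.29 in K/L cells, 9.69, 9.62 and 9.74 in Sox4 cells and 9.45, 9.23 and 8.70 in wild type cells. No groups overlapped, and K/L minus wild type was 1.01 ± 0.17, but 2 of its other probe sets, 1431258_at and 1437182_at, gave -0.12 and -0.28 for that difference while K/L minus Sox4 was above 0 in all 5.

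Prpf6 (1424036_at), a protein of the spliceosome, measured 10.52, 10.52 and 10.58 in K/L cells, 9.88, 9.84 and 9.94 in Sox4 cells and 9.73, 9.85 and 9.56 in wild type cells. K/L values lay 0.83 ± 0.098 above wild type and 0.65 ± 0.098 above Sox4, without overlap. Mrgbp (1428366_at), of the NuA4 histone acetyltransferase complex, measured 9.60, 9.53 and 9.63 in K/L cells, 9.03, 8.60 and 8.82 in Sox4 cells and 9.42, 9.39 and 9.45 in wild type cells. There K/L and wild type differed by only 0.17 ± 0.11, and the gap was to Sox4 cells, 0.77 ± 0.11. Rtel1 (1436728_s_at), a helicase of telomeres, measured 7.34, 7.33 and 7.41 in K/L cells, 6.68, 7.12 and 7.22 in Sox4 cells and 7.30, 6.94 and 6.86 in wild type cells. K/L values sat just above the others, by 0.33 ± 0.16 against wild type. Ythdf1 (1415767_at), a reader of methylated adenosine in mRNA, measured 10.24, 10.24 and 10.17 in K/L cells, 9.79, 9.61 and 9.76 in Sox4 cells and 9.88, 9.88 and 9.69 in wild type cells. K/L values stood above both groups, which overlapped, by 0.40 ± 0.097 against wild type and 0.50 ± 0.097 against Sox4. Gid8, of a ubiquitin ligase complex, averaged 9.68 ± 0.074 in K/L, 9.15 ± 0.22 in Sox4 and 9.18 ± 0.13 in wild type cells (SD), and with its neighbour Dido1 it shares most of the promoter printed above.

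Among Golgi and vesicle genes, Arfgap1 (1427245_at), which switches off Arf GTPases at the Golgi, measured 7.86, 8.17 and 8.20 in K/L cells, 7.47, 7.45 and 7.46 in Sox4 cells and 7.23, 7.42 and 6.90 in wild type cells. K/L values stood apart by 0.89 ± 0.14 against wild type and 0.62 ± 0.14 against Sox4. Arfrp1, an Arf-related GTPase of the Golgi, averaged 8.73 ± 0.066 in K/L, 8.50 ± 0.12 in Sox4 and 8.50 ± 0.079 in wild type cells (SD) and had the smallest K/L minus Sox4 difference of the window, 0.23 ± 0.099. Tpd52l2, of vesicle traffic, averaged 10.35 ± 0.11 in K/L, 10.00 ± 0.071 in Sox4 and 9.88 ± 0.36 in wild type cells (SD), and its wild type array 3 reached the level of the K/L arrays. For 2 of its other probe sets, 1417106_at and 1417107_at, K/L minus wild type was -0.12 and -0.07. Dnajc5, a chaperone of vesicle release, averaged 10.04 ± 0.094 in K/L, 9.34 ± 0.082 in Sox4 and 9.66 ± 0.16 in wild type cells (SD), with Sox4 cells lowest.

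The remaining members had varied roles. Ogfr (1422511_a_at), the receptor of the opioid growth factor, measured 8.37, 8.53 and 8.53 in K/L cells, 7.79, 7.73 and 7.67 in Sox4 cells and 7.43, 7.56 and 7.36 in wild type cells. No groups overlapped, and K/L minus wild type was 1.03 ± 0.095, about 2-fold. Ppdpf (1428381_a_at) measured 8.86, 8.75 and 8.97 in K/L cells, 7.79, 8.23 and 8.08 in Sox4 cells and 8.18, 8.20 and 8.27 in wild type cells. K/L lay 0.64 ± 0.12 above wild type and 0.83 ± 0.12 above Sox4, without overlap. Uckl1 (1424646_at), of the uridine kinase family, measured 8.83, 8.55 and 8.82 in K/L cells, 8.20, 8.01 and 7.88 in Sox4 cells and 8.73, 8.53 and 8.27 in wild type cells. K/L overlapped wild type and lay 0.70 ± 0.14 above Sox4. Slco4a1 itself, an organic anion transporter, averaged 7.77 ± 0.15 in K/L, 7.08 ± 0.18 in Sox4 and 7.31 ± 0.16 in wild type cells (SD), so that K/L was higher by 0.47 ± 0.13 than wild type.

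In the Pcif1 window all K/L values lay above all wild type values in 14 of 15 members, 9 of them at least 2-fold apart, and Cd40 overlapped. Against Sox4 cells 12 members had K/L above without overlap, none at 2-fold, while Cd40, Trp53rka and B4galt5 overlapped. Of all tested genes, 33 percent had all K/L values above wild type and 27.3 percent had them above Sox4. K/L means were the highest in 13 members, and Sox4 means lay in between in 12. Wild type array 3 was below both other wild type arrays in 10 of the 15, by 0.90 for Prex1 and by 1.30 for Arfgef2 against their mean. Without that array the median K/L minus wild type difference was 1.17 in place of 1.33.

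Among signalling and surface genes, Prex1 (1434069_at), an activator of the GTPase Rac in neutrophils, measured 9.28, 9.37 and 9.48 in K/L cells, 8.95, 9.16 and 9.04 in Sox4 cells and 7.42, 7.64 and 6.63 in wild type cells. It had the largest K/L minus wild type difference of all 45 members, 2.15 ± 0.22 or 4.43-fold, against 0.32 ± 0.22 for K/L minus Sox4. Sulf2 (1442408_at), which trims sulfate from heparan sulfate outside the cell, measured 9.22, 9.34 and 9.37 in K/L cells, 8.99, 8.91 and 8.90 in Sox4 cells and 8.04, 7.81 and 7.32 in wild type cells. No groups overlapped, with 1.59 ± 0.16 for K/L minus wild type, and a dim probe set, 1430388_a_at, gave 0.28. Cd40 (1439221_s_at), a TNF receptor family member of antigen-presenting cells, measured 7.06, 7.18 and 6.91 in K/L cells, 7.10, 7.12 and 7.11 in Sox4 cells and 7.49, 7.24 and 7.11 in wild type cells. All groups overlapped, and Cd40 was the only chromosome 2 member whose K/L mean lay below wild type, -0.23 ± 0.12.

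Of the genes of the Golgi and of glycans, Arfgef2 (1443842_at), which activates Arf GTPases, measured 8.69, 8.87 and 8.43 in K/L cells, 7.96, 7.95 and 7.90 in Sox4 cells and 7.65, 7.25 and 6.15 in wild type cells. No groups overlapped, but wild type array 3 was far below the others, and K/L minus wild type was 1.64 ± 0.31. B4galt5 (1421967_at), which makes lactosylceramide, measured 8.51, 8.59 and 8.83 in K/L cells, 8.36, 8.57 and 8.27 in Sox4 cells and 7.48, 7.47 and 6.70 in wild type cells. The leukaemias overlapped each other and lay above wild type, by 1.43 ± 0.20 in K/L. Slc35c2, of the nucleotide sugar transporters, averaged 9.99 ± 0.17 in K/L, 9.59 ± 0.081 in Sox4 and 8.65 ± 0.14 in wild type cells (SD), and its 2 other probe sets gave K/L minus wild type differences of 1.34 and 1.54.

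Coactivators and RNA genes made up the rest. Ncoa3 (1448027_at), a coactivator of nuclear receptors, measured 9.39, 9.51 and 9.33 in K/L cells, 8.91, 9.05 and 8.94 in Sox4 cells and 7.96, 7.80 and 7.44 in wild type cells. No groups overlapped, K/L minus wild type was 1.68 ± 0.13, and a second probe set gave 2.25. Ncoa5 (1424055_at), also a nuclear receptor coactivator, measured 8.19, 8.25 and 8.26 in K/L cells, 7.87, 8.03 and 8.06 in Sox4 cells and 8.12, 8.05 and 8.12 in wild type cells. K/L values were just above the others, by 0.14 ± 0.089 against wild type. Pcif1 (1455756_at), which methylates the base next to the mRNA cap, measured 7.70, 7.78 and 7.85 in K/L cells, 7.05, 6.90 and 7.10 in Sox4 cells and 6.18, 6.56 and 5.92 in wild type cells. The 3 groups formed steps without overlap, 1.56 ± 0.15 for K/L minus wild type and 0.76 ± 0.15 for K/L minus Sox4.

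Stau1 (1450741_at), which binds double-stranded RNA, measured 9.45, 9.27 and 9.36 in K/L cells, 8.63, 8.52 and 8.64 in Sox4 cells and 8.48, 8.19 and 8.12 in wild type cells. No groups overlapped, at 1.10 ± 0.11 for K/L minus wild type, although probe set 1435347_at gave 0.08 and, for K/L minus Sox4, -0.24. Zfas1 (1455010_at), a non-coding host gene of small nucleolar RNAs that overlaps Znfx1, measured 9.96, 9.93 and 9.95 in K/L cells, 9.30, 9.41 and 9.36 in Sox4 cells and 9.75, 9.87 and 9.85 in wild type cells. K/L lay 0.59 ± 0.085 above Sox4 but only 0.13 ± 0.085 above wild type. Ddx27, a helicase of ribosomal RNA processing, averaged 11.36 ± 0.052 in K/L, 10.67 ± 0.14 in Sox4 and 10.03 ± 0.23 in wild type cells (SD), in 3 separate steps. Zmynd8, a chromatin reader, averaged 9.84 ± 0.098 in K/L, 9.25 ± 0.044 in Sox4 and 8.99 ± 0.49 in wild type cells (SD). Cse1l, the export factor of importin alpha, averaged 10.24 ± 0.053 in K/L, 10.10 ± 0.010 in Sox4 and 9.80 ± 0.21 in wild type cells (SD) and showed K/L minus Sox4 of 0.14 ± 0.11. Trp53rka, a p53-related kinase with the near-identical neighbour Trp53rkb, for which the arrays may not separate the copies, averaged 7.67 ± 0.13 in K/L, 7.80 ± 0.12 in Sox4 and 7.49 ± 0.010 in wild type cells (SD).

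Sox4 against wild type cells was the comparison that the choice of windows did not name, and limma tested it with Benjamini-Hochberg adjustment over all 12826 genes. It shares its arrays with the K/L comparisons and so is not independent of the choice. Of the 45 members, 16 rose and 11 fell in Sox4 cells and 18 did not pass, which is 35.6 and 24.4 percent. Over all genes 26.7 percent rose and 21.1 percent fell, and over genes with a mean of 7 or more 30.2 and 23.7 percent, so the members as a whole were near the background in both directions. By window, the Pcif1 window had 10 rises and 1 fall of 15, 66.7 and 6.67 percent. The Slc38a9 window had 4 rises and 7 falls, and the Slco4a1 window 2 rises and 3 falls. The 16 calls that held with each of the 9 arrays left out in turn were 10 rises and 6 falls.

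**Figure D3:**
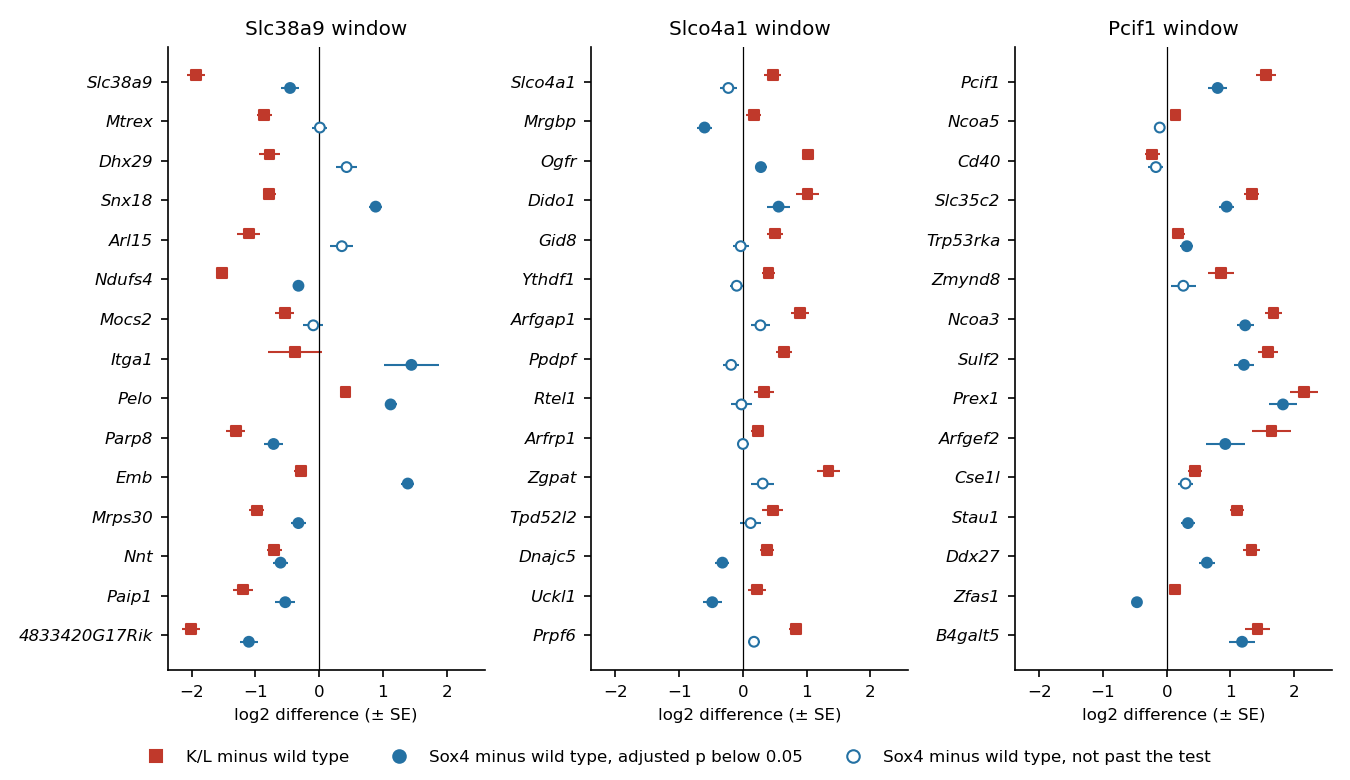
Log2 differences of each member with SE bars for K/L minus wild type (red squares) and Sox4 minus wild type (blue circles, filled where the adjusted p was below 0.05), in gene order from top to bottom. The 2 leukaemias differ from wild type in the same direction in most of the Pcif1 window, such as Prex1 at 2.15 and 1.82, and in opposite directions at Snx18 and Emb in the Slc38a9 window.

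In the Pcif1 window, Prex1 rose by 1.82 ± 0.22 in Sox4 cells (limma adjusted p = 9.5e-05), Ncoa3 by 1.23 ± 0.13 (adjusted p = 5.15e-05) and Sulf2 by 1.21 ± 0.16 (adjusted p = 0.000197). B4galt5 rose by 1.18 ± 0.20 (adjusted p = 0.000908), Slc35c2 by 0.94 ± 0.12 (0.000124), Pcif1 by 0.80 ± 0.15 (0.00166) and Ddx27 by 0.63 ± 0.13 (0.0025). These 7 calls held with each array left out, as did the fall of Zfas1, -0.47 ± 0.085 (0.00137). Ddx27 did not pass with the mean of all its probe sets. The rises of Arfgef2, 0.92 ± 0.31 (0.0331), Stau1, 0.33 ± 0.11 (0.0342), and Trp53rka, 0.32 ± 0.10 (0.0272), passed with all arrays and did not pass without Sox4 array 3. Arfgef2 also did not pass without Sox4 array 1 or 2, nor Trp53rka without wild type array 1 or 2. Stau1 did not pass without Sox4 array 1, wild type array 2 or 3, or K/L array 3 either. Cse1l at 0.30 ± 0.11 (0.0528), Zmynd8 at 0.26 ± 0.20 (0.316), Ncoa5 at -0.11 ± 0.089 (0.345) and Cd40 at -0.17 ± 0.12 (0.267) did not pass. Cse1l lay near the threshold. It passed under some alternatives, such as centring arrays on their medians or leaving out wild type array 3, and not under others.

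The Slc38a9 window split in Sox4 cells. Emb rose by 1.39 ± 0.10 (adjusted p = 3.98e-06), Pelo by 1.12 ± 0.092 (8.2e-06) and Snx18 by 0.89 ± 0.11 (9.56e-05), and these held with each array left out. Itga1 rose by 1.45 ± 0.43 (0.0184) and did not pass without Sox4 array 2 or 3. Falls that held with each array left out were those of 4833420G17Rik, -1.10 ± 0.14 (0.000145), Parp8, -0.72 ± 0.15 (0.00257), Nnt, -0.61 ± 0.12 (0.00176), and Ndufs4, -0.33 ± 0.086 (0.0109). Nnt did not pass with the mean of all its probe sets. Slc38a9, -0.46 ± 0.14 (0.0234), Paip1, -0.53 ± 0.16 (0.0198), and Mrps30, -0.33 ± 0.11 (0.0377), also fell, and none of these passed without Sox4 array 3 or without Sox4 array 2. Slc38a9 also did not pass without wild type array 3, nor Paip1 without wild type array 1. Mrps30 did not pass without Sox4 array 1, wild type array 1 or 3, or K/L array 1 or 2 either. Dhx29 at 0.43 ± 0.16 (0.0502), Arl15 at 0.36 ± 0.18 (0.139), Mocs2 at -0.093 ± 0.15 (0.653) and Mtrex at 0.011 ± 0.12 (0.95) did not pass. Dhx29 lay at the threshold. It passed under many alternatives, such as quantile normalization or leaving out wild type array 3, and not under others.

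In the Slco4a1 window, the fall of Mrgbp, -0.60 ± 0.11 (adjusted p = 0.00168), held with each array left out. Uckl1, -0.48 ± 0.14 (0.0202), and Dnajc5, -0.32 ± 0.11 (0.0334), fell, while Dido1 rose by 0.56 ± 0.17 (0.0237) and Ogfr by 0.28 ± 0.095 (0.0341), and none of these 4 passed without Sox4 array 3. Each of the 4 also did not pass without at least 1 other array, and Ogfr without any of Sox4 array 1, Sox4 array 2, wild type array 1 and wild type array 3. With the mean of all its probe sets, the difference of Dido1 was -0.26. The other 10 members, among them Zgpat at 0.31 ± 0.18 (0.177), Prpf6 at 0.17 ± 0.098 (0.175) and Arfrp1 at -0.00074 ± 0.099 (0.996), did not pass.

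The windows lay near the far ends of their chromosomes in gene order. Slc38a9 window members held places 452 to 473 of the 481 tested genes of chromosome 13, and the Pcif1 and Slco4a1 windows places 894 to 916 and 979 to 1008 of the 1012 of chromosome 2. On chromosome 13, the 451 tested genes before the window had a median K/L minus Sox4 difference of 0.00 and the nearest 15 of them -0.57. The 893 genes of chromosome 2 before the Pcif1 window had a median of -0.01 for K/L minus Sox4 and 0.00 for K/L minus wild type. The nearest 15 of them were already high in K/L cells, with medians of 0.40 and 0.55 and with 14 and 12 of 15 above 0. The 62 tested genes between both chromosome 2 windows, which are no members, were also high in K/L cells: the median was 0.48 against wild type, with 44 of 62 above 0, and 0.35 against Sox4, with 50 of 62 above 0. Of all 12826 tested genes, 7015 were above 0 against wild type and 6877 against Sox4. In Sox4 minus wild type the 62 genes had a median of 0.08, with 12 rises and 12 falls past the test. All tested genes had 26.7 percent rises and 21.1 percent falls. With members left out, 35 of the 37 genes with a mean of 7 or more from Pcif1 to the end of chromosome 2 had a higher mean in K/L than in Sox4 cells, against 51.7 percent of all genes of that level. From Slc38a9 to the end of chromosome 13 there were 2 such genes besides the members, Hmgcs1 and Zfp131, both lower in K/L than in Sox4 cells.

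**Figure D4:**
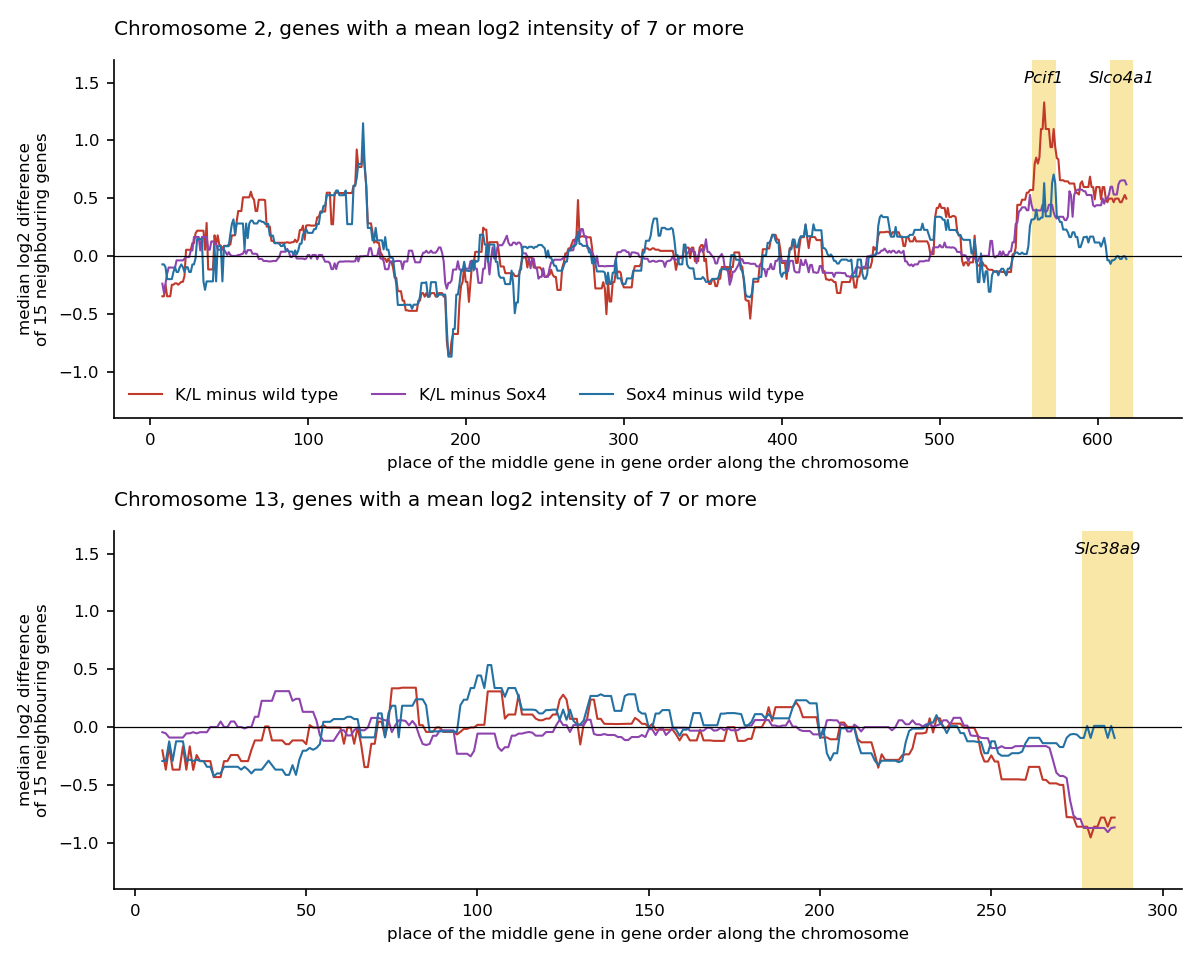
Running median of the log2 difference over 15 neighbouring genes with a mean log2 intensity of 7 or more, by place along chromosome 2 (top) and chromosome 13 (bottom), with the windows shaded. K/L minus Sox4 stays between -0.32 and 0.40 on chromosome 2 before the Pcif1 window and between 0.31 and 0.65 from there to the end, while on chromosome 13 it drops to -0.91 at the Slc38a9 window.

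Among 7312 runs of 15 neighbours with a mean of 7 or more in the whole genome, the Slc38a9 window had the lowest median for K/L minus Sox4, -0.91, and for K/L minus wild type 1 run was lower, at -0.95. No run was higher than the Slco4a1 window for K/L minus Sox4, 0.65, or than the Pcif1 window for K/L minus wild type, 1.33. Each was less extreme in the other K/L comparison. For K/L minus wild type, 806 runs were higher than the Slco4a1 window, at 0.47. For K/L minus Sox4, 425 runs were higher than the Pcif1 window, at 0.40. These ranks describe how the windows were chosen. Sox4 minus wild type was not named in the choice, but it shares its arrays with both K/L comparisons and is their difference in each gene. Its runs ranged from -0.87 to 1.15, and 136 of them were higher than the Pcif1 window at 0.63. That rank too is not independent of the choice. As the plot of running medians shows, the curves against wild type moved widely along all of chromosome 2, while K/L minus Sox4 kept within -0.32 and 0.40 before the Pcif1 window.

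The edges were not sharp in single genes. The nearest genes with a mean of 7 or more are given first. Just outside the Slc38a9 window, Map3k1 showed 0.31 for K/L minus wild type and -0.79 for K/L minus Sox4, and Hmgcs1 on the other side -0.22 and -0.80. Inside it, Slc38a9 and 4833420G17Rik had -1.93 and -1.48, and -2.01 and -0.91. Next to the Slco4a1 window came Cables2, at 1.15 and 0.65, and Rgs19, at 1.09 and 1.05, beside the end members Slco4a1, at 0.47 and 0.69, and Prpf6, at 0.83 and 0.65. Against wild type both outside genes thus differed more than the end members. Next to the Pcif1 window lay 4930445K14Rik, at -0.30 and 0.56, and Slc9a8, at 0.66 and 0.31, beside Pcif1 at 1.56 and 0.76 and B4galt5 at 1.43 and 0.24. Dimmer tested genes lay nearer to 2 of the windows. Before Slc38a9 these were Il31ra, at 2.15 for K/L minus wild type and -0.90 for K/L minus Sox4, and Il6st, at -1.32 and -4.21. After 4833420G17Rik they were 3110070M22Rik, at 0.061 and 0.44, Tmem267, at -2.18 and -1.01, and Ccl28, at -0.58 and -0.14. Gata5, at -0.26 and -0.13, lay before Slco4a1, and Tcea2, at 0.78 and 1.34, after Prpf6.

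Dimmer genes within the spans were less shifted. The 7 tested genes of the Slc38a9 span with a mean under 7 had a median K/L minus Sox4 difference of -0.018, the 15 of the Slco4a1 span 0.33, and the 8 of the Pcif1 span 0.093. Against wild type the medians were -0.32, 0.16 and 0.13. Single ones moved as the members did, such as Plpp1, at -0.98 against wild type and -1.51 against Sox4. Of 71 further probe sets for 33 members, 61 passed the same filter on low signal. The sign for K/L minus wild type was that of the probe set used in 56 and opposite in 5, and for K/L minus Sox4 it was the same in 57 and opposite in 4. For Sox4 minus wild type it was the same in 49 and opposite in 12, of which 10 were among the 23 of the Slco4a1 window. An unused _x_at probe set was brighter than the used one for Nnt, Slco4a1, Ythdf1 and Prpf6, and for the last 3 of these it gave 0.54, 0.46 and 0.48 for K/L minus wild type and 0.90, 0.47 and 0.43 for K/L minus Sox4.

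Several measures of the arrays moved with the groups. Replicate arrays correlated at r of 0.991 or more except wild type array 3, at 0.979 and 0.977, and 400 and 495 genes differed there by over 2-fold, against 18 to 69 in other pairs. Gapdh control probes gave a 3′ over 5′ signal ratio of 1.93 to 2.00 in the K/L group, 2.22 to 2.44 in the Sox4 group and 2.68 to 2.91 in the wild type group, while the actin ratio overlapped. Sox4 array 1 had Xist signal (12.10) and 4.14 for the Y-linked Kdm5d, Sox4 array 2 the reverse, and Sox4 array 3 both (11.63 and 9.01), whereas all K/L and wild type arrays had Kdm5d alone. Summed signal of 9 neutrophil genes was 14.21 to 14.29 in the K/L group, 15.01 to 15.05 in the Sox4 group and 15.35 to 15.46 in the wild type group, that of 5 mast cell genes 12.18 to 12.39, 10.39 to 10.84 and 9.77 to 10.21, and that of 6 megakaryocyte genes 7.78 to 7.82, 10.37 to 11.05 and 8.13 to 8.39. In the same order, 6 monocyte genes summed to 11.73 to 12.05, 12.74 to 12.85 and 11.20 to 11.29, although Adgre1 was lowest in the Sox4 group. The sums were 7.77 to 7.95, 10.21 to 10.34 and 7.65 to 7.85 for 7 erythroid genes. For 8 dendritic and MHC class II genes they were 8.19 to 8.90, 9.64 to 9.71 and 7.95 to 8.23. Not every gene of these lists moved with its sum. Of the B cell list, which bears on Cd40, 4 of 9 genes on the arrays, Ms4a1, Ebf1, Blnk and Cd22, lay below the 40th percentile on all arrays. The summed signal of the 9 was 9.60 to 9.70 in the K/L group, 9.26 to 9.55 in the Sox4 group and 8.74 to 9.10 in the wild type group. Of them Cd79b measured 8.03 to 8.14, 8.40 to 8.70 and 6.60 to 6.85 in that order of groups, and Vpreb1 8.31 to 8.36, 6.91 to 7.54 and 7.42 to 7.98. The mast cell list did not move as one: Cpa3, at 11.83 to 12.03, 8.99 to 9.75 and 6.83 to 9.36, and Mcpt8, at 9.92 to 10.11, 8.63 to 8.87 and 8.61 to 9.37, were highest in the K/L group. Ms4a2 was lowest there, at 4.71 to 5.30, 8.28 to 8.85 and 5.93 to 6.49, and Fcer1a was highest in the Sox4 group, at 3.00 to 3.69, 4.45 to 5.57 and 3.12 to 3.29. Nor did the neutrophil list move as one, with the K/L, Sox4 and wild type groups given in that order. S100a9 measured 5.53 to 6.86, 10.82 to 10.88 and 13.14 to 13.65. Prtn3, at 11.99 to 12.17, 12.29 to 12.37 and 11.37 to 11.66, was lowest in the wild type group. Ltf, at 4.84 to 5.19, 7.06 to 7.71 and 4.86 to 5.18, was highest in the Sox4 group. Sox4 itself measured 10.52 to 10.87 in the K/L group, 9.61 to 9.87 in the Sox4 group and 3.81 to 3.97 in the wild type group, so it was high in both leukaemias. The part of these measures in the window differences was not tested.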

How the data were processed

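Per the labels, 5 ug of total RNA per sample was made into biotinylated cRNA for Affymetrix arrays. The authors deposited linear intensity values for 45101 probe sets, with a floor of 8, and RMA is named without a version in the submitters' processing notes. A 2016 platform annotation gave 34958 probe sets 1 symbol, 932 several and 9211 none. Each gene was represented by its probe set of highest mean, with _x_at probe sets used only where a gene had no other, and kept if 3 of 9 arrays exceeded the array's 40th percentile. Array medians of 43.07 to 46.79 were left as deposited, and the number of arrays limits precision.

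Log2 values of 9 arrays in 3 groups were fitted with limma 3.58.1 (R 4.3.3), adjusted by Benjamini-Hochberg over 12826 genes at 0.05, and tested on simulated data. Groups came from sample titles. Gene order came from RefSeq (GRCm38.p6). Alternatives changed scaling, probe set rule, filter, pseudocount, fit, replicate block and arrays. Members and lists were chosen with earlier results of these data known. Values on every array are given for the 6 largest and 2 smallest K/L minus wild type differences of a window, the 3 largest Sox4 rises and falls, and a fixed list of further members. No gene of a window was dropped.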

Additional observations from a re-analysis of the deposited data

How the results depend on the processing

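Centring every array on its median gave a Slc38a9 window median of -0.77 for K/L minus wild type and -0.83 for K/L minus Sox4, and a Slco4a1 window median of 0.56 for K/L minus wild type. With the mean of all probe sets of a gene, K/L minus wild type was -0.77 in the Slc38a9 and 0.86 in the Pcif1 window, Sox4 minus wild type was -0.12 in the Slco4a1 window, and Dido1 turned to -0.26 for Sox4 minus wild type. Under that rule the Sox4 calls of Ddx27, Dido1, Dnajc5, Nnt and Ogfr were lost, and Cse1l, Dhx29 and Slco4a1 were gained. Quantile normalization turned the Slco4a1 median for Sox4 minus wild type to 0.00866. Over every tested gene of a span, an alternative chosen after seeing the data, the medians were -0.78 and -0.79 (Slc38a9, K/L minus wild type and minus Sox4), 0.39 and 0.51 (Slco4a1, likewise), and 1.02 and 0.38 (Pcif1, K/L and Sox4 minus wild type). The causes were not tested.

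Leaving out each array in turn gave Slc38a9 medians of -0.97 to -0.83 (K/L minus wild type), -1.03 to -0.84 (K/L minus Sox4) and -0.20 to 0.013 (Sox4 minus wild type, above 0 without wild type array 3). The Slco4a1 medians were 0.44 to 0.55, 0.61 to 0.66 and -0.12 to 0.069, the last at 0.032 without wild type array 2 and 0.069 without Sox4 array 1. The Pcif1 medians were 1.17 to 1.39, 0.35 to 0.45 and 0.49 to 0.70, and 0 to 1 of its members lay below wild type without overlap in K/L. Sox4 calls ranged from 10 to 17 rises and 6 to 11 falls. Without Sox4 array 3, where 40.7 percent of all genes passed, 10 rises and 6 falls passed. Without Sox4 array 2 or wild type array 1, 6 and 7 falls passed.

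Same-numbered arrays of different groups did not deviate together, with correlations of their deviations between -0.02 and 0.08. Whether the arrays were paired by design cannot be told from these correlations. With the replicate block, 16 rises and 10 falls passed, 26 calls in place of 27, with 25 shared, Mrps30 and Ogfr lost and Dhx29 gained. The floor and dim signal limit the less bright genes of the spans.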
